A study of Mus musculus with 6 samples.

Results

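Haem and iron handling genes were followed through the CD45+ cells of mouse soleus muscle. The 9 genes were found by symbol among the 31053 gene rows of the deposited matrices, and each matched 1 row. Cd163 and Slc48a1 serve uptake, Hmox1 and Blvrb breakdown, Fth1 and Ftl1 storage, Slc40a1 export, and Tfrc and Slc11a1 the import of iron across membranes. The study asked how age changes muscle macrophages during disuse and early recovery. DAPI− CD45+ cells were sorted to take live leukocytes from the pooled solei of male C57BL/6 mice and sequenced as 1 10x Genomics library (3′ chemistry) for each age and treatment. Old mice were 20 to 22 months and young mice 4 to 5 months of age. The paper names the National Institute on Aging as the source of old mice and a University of Utah core for young mice. Age therefore cannot be told apart from the source of the mice. Control mice were ambulatory, HU mice had 14 days of hindlimb unloading, and reload mice walked again for 4 days after 14 days of unloading. The pools held 20 old and 10 young control mice, 10 old and 8 young HU mice, and 10 old and 10 young reload mice.

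Macrophages take up haemoglobin and dying red cells, bring haem out of the phagolysosome, split it with haem oxygenase into iron, carbon monoxide and biliverdin, and store the iron in ferritin or return it to plasma through ferroportin. Much of this is set after transcription: iron regulatory proteins bind stem-loops in the mRNA (iron-responsive elements), which blocks ferritin and ferroportin translation and stabilises the transferrin receptor mRNA when iron is scarce. A transcript count therefore reads the mRNA side of the system and not the protein.

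Stem-loops of this kind are shown because they separate the members into those with the element before the coding sequence and the one with it after. The motif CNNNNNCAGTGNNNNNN was searched on the transcript strand, with the 5 bases before the 6-base loop required to pair with the 5 after it (G-T pairs allowed). It was found in the 5′ untranslated region of Fth1, Ftl1 and Slc40a1 and 4 times in the 3′ untranslated region of Tfrc, and in no untranslated region of the other 5 members. Capitals mark the loop, and the bases are given 5′ to 3′ as DNA letters of the GENCODE M21 transcripts (GRCm38).
Fth1, chr19:9982732-9982760, plus strand, 5′ untranslated region: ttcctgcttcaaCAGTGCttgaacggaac
Ftl1, chr7:45459779-45459807, minus strand, 5′ untranslated region: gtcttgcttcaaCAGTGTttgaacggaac
Slc40a1, chr1:45925465-45925493, minus strand, 5′ untranslated region: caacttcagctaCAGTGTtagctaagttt
Tfrc, chr16:32631219-32631247, plus strand, 3′ untranslated region: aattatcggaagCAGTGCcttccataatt
Tfrc, chr16:32631598-32631626, plus strand, 3′ untranslated region: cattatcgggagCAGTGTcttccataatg
Tfrc, chr16:32631663-32631691, plus strand, 3′ untranslated region: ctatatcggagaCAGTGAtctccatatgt
Tfrc, chr16:32631710-32631738, plus strand, 3′ untranslated region: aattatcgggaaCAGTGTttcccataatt

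Over all annotated coding genes the motif was present in the 5′ untranslated region of 31 of 21200 genes (0.146%) and in the 3′ untranslated region of 144 of 21849 (0.659%). Of the 4 Slc40a1 transcripts with a 5′ untranslated region, 1 held the motif, and 3′ counts do not separate these transcripts. The match is a description of the letters, and no binding was measured.

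Each library held 1675 to 3676 barcodes and 5782054 to 22749375 unique molecular identifiers (UMIs), and 12224 of 15467 barcodes were kept. The share of barcodes with over 10% mitochondrial UMIs was 9.46% and 4.12% in old and young control. It was 9.60% and 27.5% in old and young HU, and 17.4% and 33.3% in old and young reload. Cells were gated on fixed markers that include no member, which gave 4687 macrophages, 746 monocytes, 665 dendritic cells, 1030 neutrophils and 1085 T cells, and 2528 cells (20.7%) took no class. The sort also left 514 endothelial, 154 fibroblast and 68 mural cells by their markers, and Ptprc, which encodes CD45, was found in 1.36% of these endothelial cells against 65.8% of macrophages. Endothelial cells made up 9.49% and 20.2% of kept cells in old and young HU and at most 0.761% in the other 4 libraries. The 10 macrophage markers were each found in 56.3% to 96.1% of the macrophages and in 2.69% to 28.4% of other cells. Ly6g, a defining neutrophil marker, was found in 18.9% of the cells gated as neutrophils, whereas S100a8 was found in 99.6%. Macrophages were also divided into a Lyve1-set (Lyve1, Folr2, Vsig4 and 5 further genes of resident macrophages, 1709 cells) and a Ccr2-set (Ccr2, Il1b, Spp1 and 5 further genes of infiltrating or activated cells, 2288 cells). The Lyve1-set made up 63.2% and 41.7% of old and young control macrophages, 66.7% and 70.3% of old and young HU macrophages, and 19.7% and 13.3% of old and young reload macrophages. The old and young control libraries shared 41 barcodes, and other pairs shared 5 to 17. Both control libraries were sequenced in 1 run and the HU and reload libraries in another, so control cannot be told apart from its run. The sample titles also carry a different leading number for each treatment, so reload and HU cannot be told apart from whatever those numbers mark. Levels are given in CPM, the UMIs of a gene scaled to the summed UMIs of its class in that library. With 1 library per group, intervals are exact 95% Poisson or binomial intervals for counting error only. Tests use edgeR's quasi-likelihood test on summed UMIs with Benjamini-Hochberg adjustment over all genes tested. Age and treatment are tested on the 6 sums of a class. Between classes or sets each library gives 1 sum for each side and is a block. Mouse pools are not replicated within a group, so tests of age or treatment take differences over treatments or ages as their only replication.

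Fitted over libraries, macrophages had more of every member than T cells or dendritic cells, whereas the export gene Slc40a1 was higher in neutrophils. All 9 members were higher in macrophages than in T cells, where 30% of all tested genes were higher, and all 9 were higher than in dendritic cells, where 25% of tested genes were. Against monocytes 6 members were higher and none lower (18.8% of tested genes higher and 16.5% lower). Against neutrophils 5 were higher and 3 were lower (36.8% and 20.2% of tested genes), and the median over all tested genes was itself 0.55 higher in macrophages on the log2 scale. Against B cells 7 of 8 tested members were higher (26.4% of tested genes), in a fit of 4 libraries (old and young control, old HU and old reload). The median log2 difference over the members was 5.05 against T cells, 2.61 against dendritic cells, 0.48 against monocytes and 1.43 against neutrophils.

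Some of these calls did not hold in every setting. Ftl1 against monocytes (0.27 ± 0.08) was lost with DESeq2 (0.31, adjusted p = 0.069), with classes taken by cluster (0.09) and without old control, old HU, old reload or young reload (0.22 to 0.28). Slc48a1 against dendritic cells (0.61 ± 0.14) was lost with the looser gate (0.29) and with classes by cluster (0.06), and Blvrb against B cells (1.20 ± 0.25) with classes by cluster (0.25). T cells held 0 Slc40a1 UMIs, so its fitted difference from them is no fold.

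**Figure D1:**
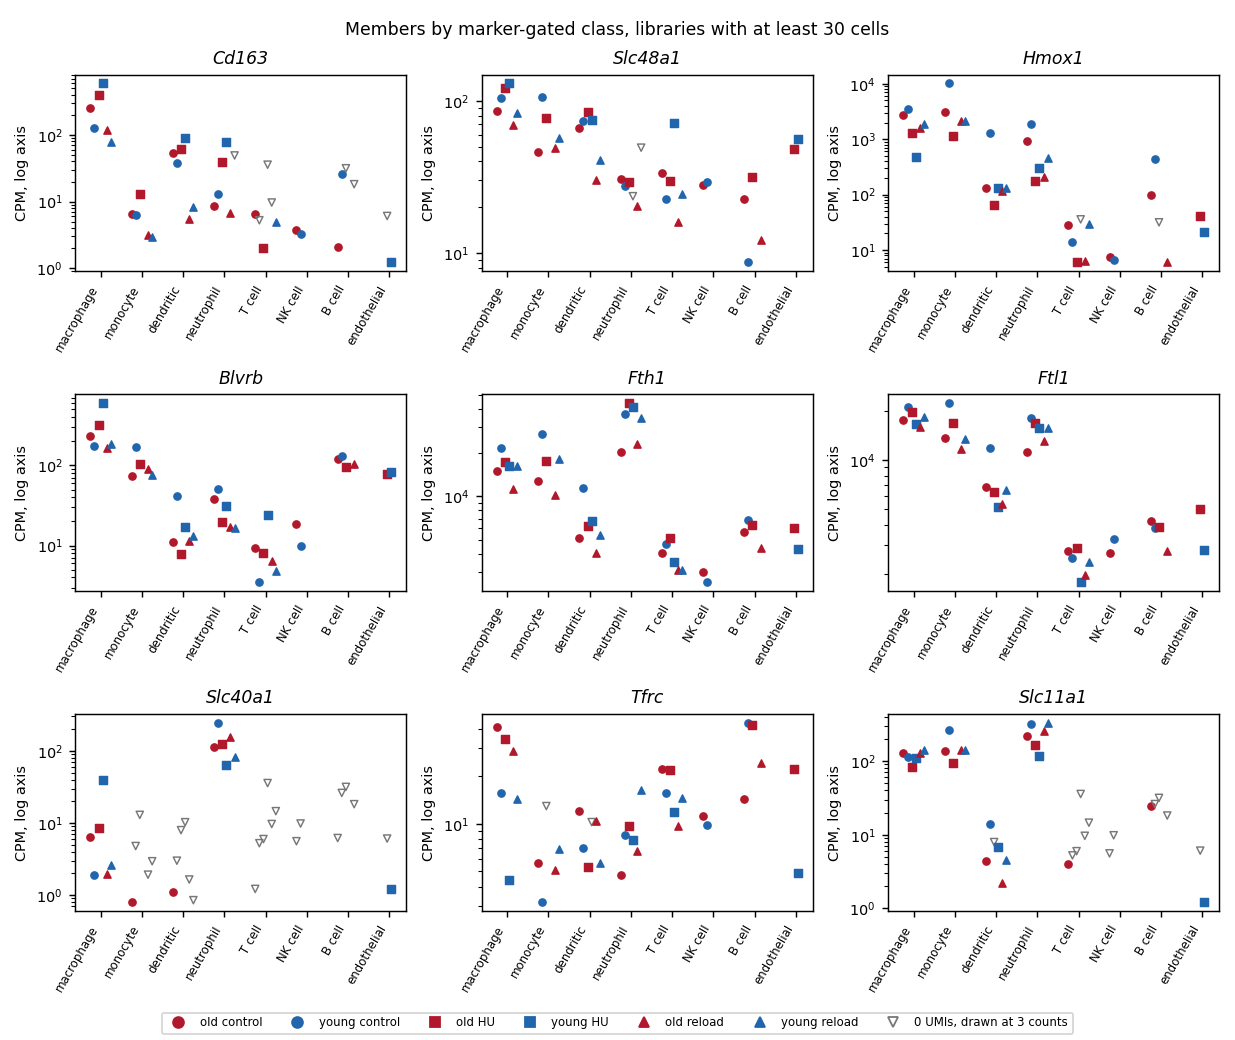
Levels of the 9 genes in CPM (log axes) by marker-gated class, with 1 point for each library that had at least 30 cells of the class and open triangles for libraries with 0 UMIs, drawn at the level of 3 counts. Slc40a1 sits between 1.92 and 38.9 CPM in macrophages and between 63.1 and 243 CPM in neutrophils, and Fth1 and Ftl1 lie above 1000 CPM in every class.

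Cd163, the scavenger receptor that takes up haemoglobin bound to haptoglobin, exceeded 88.8 CPM, its highest level in any other named class with at least 30 cells in a library, in 5 of 6 macrophage libraries. It reached 255 CPM in old control and 126 CPM in young control macrophages, 399 CPM in old HU and 593 CPM in young HU, and 118 CPM in old reload and 79.0 CPM in young reload. Both HU libraries lay above both control libraries, and both reload libraries lay below them. The share of all genes ordered in this way was not counted. Neither HU nor reload passed the test against control (edgeR adjusted p = 0.13 and 0.38), and control cannot be told apart from its run. At 2000 UMIs per cell it was found in 22.9% of macrophages and in 0.326% of T cells. Its level in macrophages exceeded that in monocytes by 5.02 ± 0.20 (log2 ± SE, edgeR adjusted p = 4.1e-10, 5 libraries), and it was 6.11 ± 0.35 above T cells and 2.61 ± 0.25 above dendritic cells.

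Slc48a1 encodes HRG1, which moves haem out of the phagolysosome. Its macrophage level was 85.7 CPM in old control and 104 CPM in young control, 121 CPM in old HU and 130 CPM in young HU, and 69.6 CPM in old reload and 83.0 CPM in young reload. Old was below young in each treatment, and in HU the interval of their ratio included 0 on the log2 scale (-0.11, 95% interval -0.34 to 0.13). Slc48a1 was 0.48 ± 0.15 above monocytes (edgeR adjusted p = 0.022) and 1.86 ± 0.21 above T cells, where its level was between 16.1 and 71.5 CPM. The call against monocytes was lost without old control (0.38, edgeR adjusted p = 0.12), without old reload (0.49, edgeR adjusted p = 0.066) and without young reload (0.46, edgeR adjusted p = 0.053).

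Hmox1, the inducible haem oxygenase that opens the haem ring, was high in both macrophages and monocytes. In macrophages it had 2787 CPM in old control and 3470 CPM in young control, 1267 CPM in old HU and 482 CPM in young HU, and 1597 CPM in old reload and 1876 CPM in young reload. The control libraries were the highest and the HU libraries the lowest, and the ranges of the 3 treatments did not overlap. The share of all genes ordered in this way was not counted. At 2000 UMIs it was found in 76.8% of macrophages and in 0.979% of T cells, and in young HU the macrophage share was 47.9% against 76.7% to 85.0% in the other 5 libraries. Monocytes had 3073 CPM in old control and 10121 CPM in young control, 1126 CPM in old HU, and 2163 CPM in old reload and 2129 CPM in young reload, and young HU held fewer than 30 monocytes. The difference of macrophages from monocytes, -0.44 ± 0.19, did not pass the test (edgeR adjusted p = 0.081), and it did without old HU (-0.58, edgeR adjusted p = 0.049). Macrophages exceeded dendritic cells by 3.15 ± 0.38 and neutrophils by 1.57 ± 0.35.

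Blvrb, the biliverdin reductase B that reduces a product of haem breakdown, had, like Cd163, its highest levels in the HU libraries. It had 232 CPM in old control and 173 CPM in young control macrophages, 318 CPM in old HU and 594 CPM in young HU, and 165 CPM in old reload and 186 CPM in young reload. Control and reload values overlapped, and the share of all genes with both HU libraries highest was not counted. Blvrb was 1.04 ± 0.21 above monocytes (edgeR adjusted p = 0.0012) and 3.62 ± 0.30 above dendritic cells. Among cells thinned to 2000 UMIs, Blvrb was found more often in macrophages with a Cd163 UMI than in those without one in all 6 libraries, from 38.5% against 28.3% in young control to 71.6% against 56.3% in young HU. Hmox1 and Tfrc were also found more often in macrophages with a Cd163 UMI in all 6 libraries. These cells were not divided into the Lyve1-set and the Ccr2-set, between which Cd163 and Blvrb both differ. The shares are descriptions over cells of 1 library each.

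Fth1 and Ftl1 encode the ferritin heavy chain, which oxidises iron, and the light chain, which favours its mineral core. Together they took 2.73% to 4.27% of all macrophage UMIs, and the rank of each among all genes lay between 2 and 6 in every macrophage sum. Fth1 had 14969 CPM in old control and 21532 CPM in young control, 17244 CPM in old HU and 16088 CPM in young HU, and 11218 CPM in old reload and 16210 CPM in young reload. Old macrophages were lower than young ones in control and reload, by log2 ratios of -0.52 and -0.53, and were 0.10 above them in HU. Ftl1 stayed between 16064 and 21121 CPM, a narrower range than Fth1. Ftl1-ps1, a pseudogene close in sequence to Ftl1, had 84.5 and 114 CPM in old and young control macrophages, so reads may be shared between the copies and Ftl1 is given with that uncertainty. Fth1 was higher in neutrophils, at 20274 and 36847 CPM in old and young control, 43933 and 41594 CPM in old and young HU, and 22881 and 34533 CPM in old and young reload. Macrophages were 1.24 lower than neutrophils in Fth1 (log2 -1.24 ± 0.30, edgeR adjusted p = 0.00068), and Ftl1 did not pass the test there (0.05 ± 0.30).

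Slc40a1 encodes ferroportin, the exporter of iron, which in tissue macrophages returns iron to plasma. Relative to all UMIs of a class it was highest in neutrophils. Macrophages had 6.29 CPM in old control and 1.92 CPM in young control, 8.56 CPM in old HU and 38.9 CPM in young HU, and 1.97 CPM in old reload and 2.65 CPM in young reload. Neutrophils had 112 CPM in old control and 243 CPM in young control, 126 CPM in old HU and 63.1 CPM in young HU, and 155 CPM in old reload and 82.1 CPM in young reload. The macrophage value was below the neutrophil value in all 6 libraries, but in young HU their intervals overlapped (30.9 to 48.4 CPM in macrophages and 27.2 to 124 CPM in neutrophils). There 80 UMIs lay in macrophages and 8 in neutrophils, and in young reload 31 and 5. Over libraries the fitted difference of macrophages from neutrophils was -4.81 ± 0.48 (edgeR adjusted p = 8.5e-12).

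At least 1 Slc40a1 UMI was found in 123 of 4687 macrophages (2.62%, median 5949 UMIs per cell), in 216 of 1030 neutrophils (20.97%, median 1428 UMIs) and in 0 of 1085 T cells (median 3406 UMIs), which allows up to 0.276% of T cells with a UMI (3 cells in 1085). The 216 neutrophils with the transcript carried S100a8 in every cell and Retnlg in 90.3% of cells, and were deeper than the 814 without it (median 1881.5 against 1321.5 UMIs). The 10 macrophage markers summed to 847 CPM in cells with the transcript and 983 CPM in cells without it, and 4 markers were found more often with it and 6 less often. Csf1r was found in 23.1% against 14.4% and C1qa in 1.85% against 2.58%. Within macrophages, 139 of the 179 Slc40a1 UMIs lay in the Lyve1-set, and the 10 neutrophil markers summed to 51.6 CPM in young HU macrophages, where Slc40a1 was highest, and to between 200 and 3204 CPM in the other 5 libraries. In young reload the 31 UMIs came from 10 cells.

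Tfrc, the transferrin receptor that brings in transferrin-bound iron, had 41.3 CPM in old control and 15.6 CPM in young control macrophages, 34.2 CPM in old HU and 4.38 CPM in young HU, and 29.0 CPM in old reload and 14.3 CPM in young reload. The 3 old libraries were all above the 3 young libraries, and the old and young ranges did not overlap. The share of all genes split in this way was not counted, and the age test called 0 of 10048 genes. Slc11a1 encodes NRAMP1, which moves divalent metal out of the phagosome of phagocytes. It had 129 CPM in old control and 113 CPM in young control, 82.2 CPM in old HU and 110 CPM in young HU, and 128 CPM in old reload and 141 CPM in young reload, with no order by age. Slc11a1 was 1.19 lower in macrophages than in neutrophils (log2 -1.19 ± 0.30, edgeR adjusted p = 0.00076) and 4.48 ± 0.30 higher than in dendritic cells. Tfrc was 2.42 ± 0.31 above monocytes (edgeR adjusted p = 2.6e-05) and 0.75 ± 0.25 above T cells (edgeR adjusted p = 0.017). Without the old control library the Tfrc differences from neutrophils (0.94, edgeR adjusted p = 0.12) and from T cells (0.60, edgeR adjusted p = 0.16) no longer passed, and without old reload the one from T cells did not (0.62, edgeR adjusted p = 0.062).

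**Figure D2:**
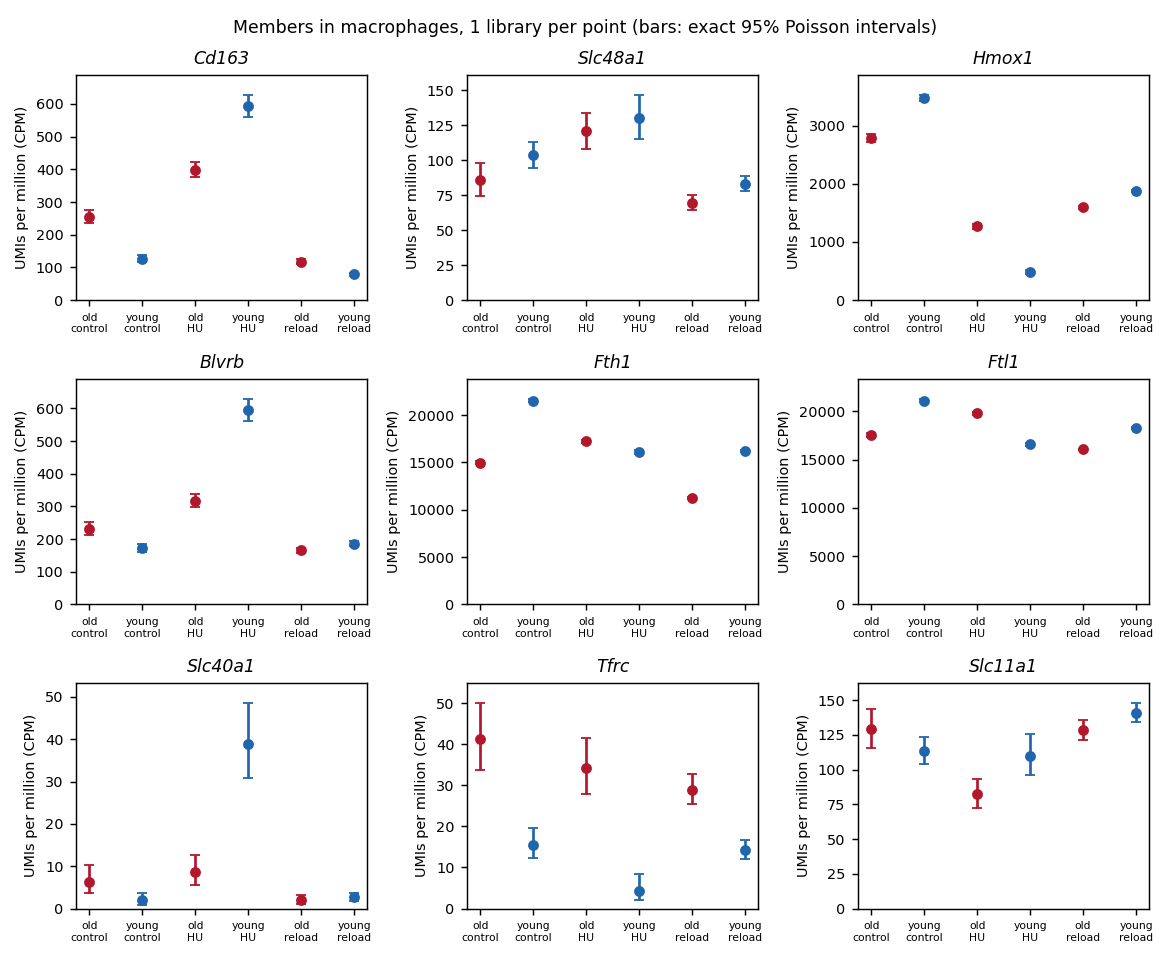
Levels of the 9 genes in macrophages, in CPM on linear axes from 0, with 1 point per library (red for old, blue for young) and exact 95% Poisson intervals. Tfrc is higher in the old than in the young library of each treatment, from 34.2 against 4.38 CPM in HU to 29.0 against 14.3 CPM in reload, and Cd163, Blvrb and Slc40a1 are highest in young HU.

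Lyve1-set macrophages had more Cd163, Tfrc, Blvrb and Slc40a1 and less Slc48a1 than Ccr2-set macrophages of the same libraries, and Fth1, Ftl1, Hmox1 and Slc11a1 did not pass the test. Of the 9 members 4 were higher in the Lyve1-set and 1 was lower, where 10.6% of tested genes were higher and 10.6% lower. Cd163 had 408 and 244 CPM in the old and young control Lyve1-set against 58.1 and 60 CPM in the Ccr2-set, 540 and 760 CPM against 121 and 135 CPM in old and young HU, and 536 and 332 CPM against 36.0 and 36.3 CPM in old and young reload. All 6 Lyve1-set values were above all 6 Ccr2-set values, with a log2 difference of 2.66 ± 0.20 (edgeR adjusted p = 2.8e-07). The share of all genes that separate the sets in this way was not counted. Tfrc was 1.79 ± 0.22 higher (edgeR adjusted p = 4.1e-05), with 64.2 and 28.2 CPM against 12.3 and 6.29 CPM in old and young control. In HU its values were 48.5 and 6.35 CPM in the old and young Lyve1-set against 5.25 CPM and 0 UMIs in the old and young Ccr2-set, and in reload they were 79.1 and 22.8 CPM against 18.7 and 12.8 CPM. In young HU the level of 3 counts in the 61 Ccr2-set cells is 9.01 CPM, so the order of the sets was not detectable there.

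Blvrb was 1.26 ± 0.16 higher in the Lyve1-set (edgeR adjusted p = 5.6e-05), with 263 to 785 CPM against 108 to 156 CPM in the Ccr2-set. The sets did not overlap, and the share of all genes without overlap was not counted. Slc40a1 was 2.51 ± 0.55 higher (edgeR adjusted p = 0.00405), at 2.28 to 55.7 CPM in the Lyve1-set and at most 2.62 CPM in the Ccr2-set, where young HU had 0 UMIs in 61 cells. In young reload the order of the sets was turned, with 2.28 CPM from 3 UMIs against 2.49 CPM. Slc48a1 was lower in the Lyve1-set by a log2 value of -0.47 ± 0.13 (edgeR adjusted p = 0.019). That call was lost with cells thinned to 2000 UMIs (-0.30, edgeR adjusted p = 0.25) and with library totals in place of TMM factors (-0.33, edgeR adjusted p = 0.091). It was also lost without old control (-0.41) and without old HU (-0.38). Fth1 (-0.29 ± 0.14), Ftl1 (-0.03 ± 0.09), Hmox1 (0.33 ± 0.15) and Slc11a1 (-0.21 ± 0.11) did not pass. Hmox1 passed without young reload (0.50, edgeR adjusted p = 0.020), with library totals (0.47, edgeR adjusted p = 0.035) and with classes by cluster (0.58, edgeR adjusted p = 0.048), and Fth1 passed without young HU (-0.43, edgeR adjusted p = 0.0096).

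**Figure D3:**
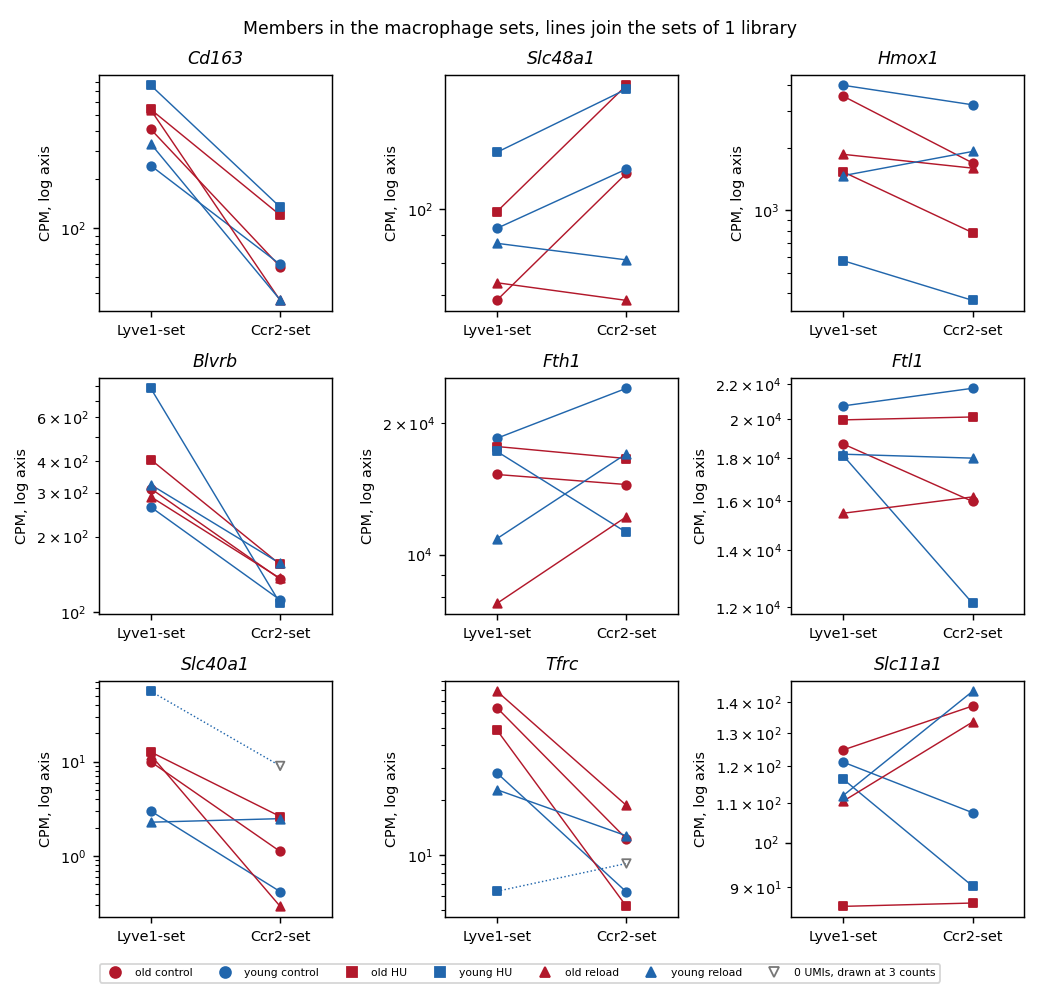
Levels of the 9 genes in CPM (log axes) in Lyve1-set and Ccr2-set macrophages, with a line joining both sets of 1 library and open triangles for 0 UMIs, drawn at 3 counts. The lines fall from the Lyve1-set to the Ccr2-set in all 6 libraries for Cd163 and Blvrb, and in 5 of 6 for Tfrc (young HU has 0 UMIs in the Ccr2-set) and Slc40a1.

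Reload against HU, which share 1 sequencing run but not the leading number of their titles, asked what 4 days of reloading changes. Cd163 was lower in reload by a log2 value of -2.34 ± 0.36 (edgeR adjusted p = 0.034) and was the 1 member of 9 that passed, where 2.99% of tested genes were lower and 2.74% higher. The call was lost without young HU (-1.71, edgeR adjusted p = 0.054) and without young reload (-2.17, edgeR adjusted p = 0.060), and the share of Lyve1-set cells moved with it, at 19.7% and 13.3% in old and young reload against 66.7% and 70.3% in old and young HU. Within the Lyve1-set the difference was -0.69 ± 0.32 (edgeR adjusted p = 0.26, where 0.563% of tested genes were lower in reload), and within the Ccr2-set it was -1.95 ± 0.23 (edgeR adjusted p = 0.0405, where 0.16% were lower). Slc40a1 (-3.14 ± 0.71) and Blvrb (-1.29 ± 0.29) both had an edgeR adjusted p of 0.056. Slc48a1 had -0.68 ± 0.21 (edgeR adjusted p = 0.10), Hmox1 had 1.08 ± 0.49 (edgeR adjusted p = 0.20), and Slc11a1 had 0.54 ± 0.21. Slc40a1 passed with DESeq2 (-3.19, adjusted p = 0.0012). Its value lay between -3.06 and -4.08 without old control, young control, old HU or old reload. Blvrb passed with DESeq2 (-1.31, adjusted p = 0.0064). Without old HU, which leaves 1 HU library, the values were -1.65 for Blvrb, 2.15 for Hmox1 and 1.77 for Tfrc. Within the Lyve1-set Blvrb had -0.97 ± 0.30 and within the Ccr2-set 0.02 ± 0.27. The median over the 9 members was -0.28, beside 0.02 over all tested genes.

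Dendritic cells gave the same question in another class. Cd163, at 5.48 and 8.21 CPM in old and young reload against 60.9 and 88.8 CPM in old and young HU, was lower in reload by a log2 value of -3.55 ± 0.38 (edgeR adjusted p = 9.2e-04). Slc48a1, at 30.1 and 40.8 CPM in old and young reload against 84.8 and 75.1 CPM in old and young HU, was lower by -1.37 ± 0.28 (edgeR adjusted p = 0.022). Both were among 6 members tested there, where 2.96% of tested genes were lower. The HU libraries held 49 and 40 dendritic cells from old and young mice. In neutrophils and T cells no tested member passed between reload and HU (0.260% and 0.0892% of tested genes called in either direction). Cd163 was not among the 5 members tested in neutrophils. It made up 0.00388% and 0.00788% of neutrophil UMIs in old and young HU, against 0.000675% and 0 UMIs in old and young reload. The source of these UMIs was not tested.

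HU against control cannot be told apart from the sequencing run. Among macrophages 0 of 10048 genes passed in edgeR's quasi-likelihood test, with 2320 at an unadjusted p under 0.05, and DESeq2 called 250. Hmox1 had a log2 difference of -1.92 ± 0.50 (edgeR adjusted p = 0.14), Slc40a1 of 2.47 ± 0.79 (0.16), Cd163 of 1.44 ± 0.35 (0.13) and Blvrb of 1.10 ± 0.29 (0.14), and the background of called genes was 0%. DESeq2 called Hmox1 (-1.90, adjusted p = 0.0083) and Cd163 (1.46, adjusted p = 0.016). Without old HU, log2 values were -2.97 for Hmox1, 3.48 for Slc40a1, 1.98 for Cd163, 1.48 for Blvrb and -2.08 for Tfrc. That fit holds 1 HU library. Hmox1 had -2.02 without old reload and -2.02 without young reload. In neutrophils Hmox1 passed, with 179 and 307 CPM in old and young HU against 935 and 1908 CPM in old and young control (log2 -2.30 ± 0.31, edgeR adjusted p = 0.0083, where 0.558% of 2690 tested genes were lower). In reload neutrophils it had 206 and 460 CPM in old and young mice, the latter from 49 cells. It was lower there than in the same control libraries (-2.26 ± 0.31, edgeR adjusted p = 0.018, where 0.855% were lower). Both comparisons share these libraries and their run, so the second is not independent of the first. The median depth of macrophages was 3528.5 and 3148 UMIs in old and young HU, against 5127.5 and 6789 UMIs in old and young control, and the part of depth in these differences was not tested beyond the thinned values.

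In reload against control macrophages 1 gene of 10048 passed (0.00995%) and it was no member. Cd163 had -0.90 ± 0.34 (edgeR adjusted p = 0.38), Hmox1 had -0.84 ± 0.47 and Fth1 had -0.39 ± 0.27. In dendritic cells Cd163, at 5.48 and 8.21 CPM in old and young reload against 53.6 and 37.9 CPM in old and young control, was lower in reload by a log2 value of -2.78 ± 0.35 (edgeR adjusted p = 0.0058, where 0.924% of tested genes were lower).

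Age, with treatment as a block, gave 0 called genes of 10048 in macrophages (0%) in edgeR's quasi-likelihood test, with 405 at an unadjusted p under 0.05 and 10 called by DESeq2. Tfrc had the largest difference among the members, with old above young by 1.56 ± 0.36 on the log2 scale, an unadjusted p of 0.0044 and an edgeR adjusted p of 0.91. The old over young log2 ratio was 1.41 (95% interval 0.96 to 1.86) in control, 2.97 (1.98 to 4.14) in HU and 1.02 (0.74 to 1.31) in reload, so old was higher in 3 of 3 treatments. In the Lyve1-set these ratios were 1.19, 2.93 and 1.79. In the Ccr2-set the reload ratio was 0.55 (0.18 to 0.93), the control ratio 0.97 had an interval of -0.30 to 2.19, and young HU had 0 UMIs. At 2000 UMIs per cell, Tfrc was found in 7.78%, 7.82% and 7.61% of old control, HU and reload macrophages and in 3.60%, 0.708% and 3.77% of young ones. In T cells the shares were 3.93% and 4.31% in old and young control, so the young macrophage shares were no higher than those of T cells in control. Tfrc passed the age test without the old reload library (2.01, edgeR adjusted p = 0.035), without the young reload library (2.01, edgeR adjusted p = 0.038) and with no filter on low counts (1.54, edgeR adjusted p = 0.022). With 1 library left out, the age test called between 0 and 47 genes.

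The other members had age differences between -0.63 ± 0.63 (Slc40a1) and 0.36 ± 0.28 (Cd163), and Slc48a1 was lower in old in each treatment. For the other 7 the sign of the ratio was not the same in the 3 treatments, and for Slc11a1 the control interval included 0. The share of all genes with such a change of sign was not counted. Cd163 was higher in old than in young macrophages in control (1.02, interval 0.85 to 1.18) and in reload (0.57, 0.45 to 0.70) and lower in HU (-0.57, -0.69 to -0.45). The share of Lyve1-set cells, where Cd163 is higher, moved with it, at 63.2% of old against 41.7% of young macrophages in control, 19.7% against 13.3% in reload and 66.7% against 70.3% in HU. Within the Lyve1-set the ratios were 0.74 in control, 0.69 in reload and -0.49 in HU. Hmox1 was lower in old in control (-0.32, -0.36 to -0.28) and reload (-0.23, -0.26 to -0.20) and higher in HU (1.40, 1.29 to 1.50). Blvrb ran the other way from Hmox1 in control (0.42, 0.27 to 0.58) and HU (-0.90, -1.03 to -0.78). For Slc40a1, found in 8 to 57 macrophages of a library, the ratio with each cell weighted equally was 0.36 in control, -1.16 in HU and 0.87 in reload, against 1.71, -2.19 and -0.43 in the summed UMIs. The sign turned in reload, and no other member turned sign with this weighting. The median over the 9 members was -0.10, beside 0.01 over all tested genes. In neutrophils Hmox1 was lower in old cells in each treatment, with a fitted difference of -1.0 ± 0.26 that did not pass (edgeR adjusted p = 0.21).

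**Figure D4:**
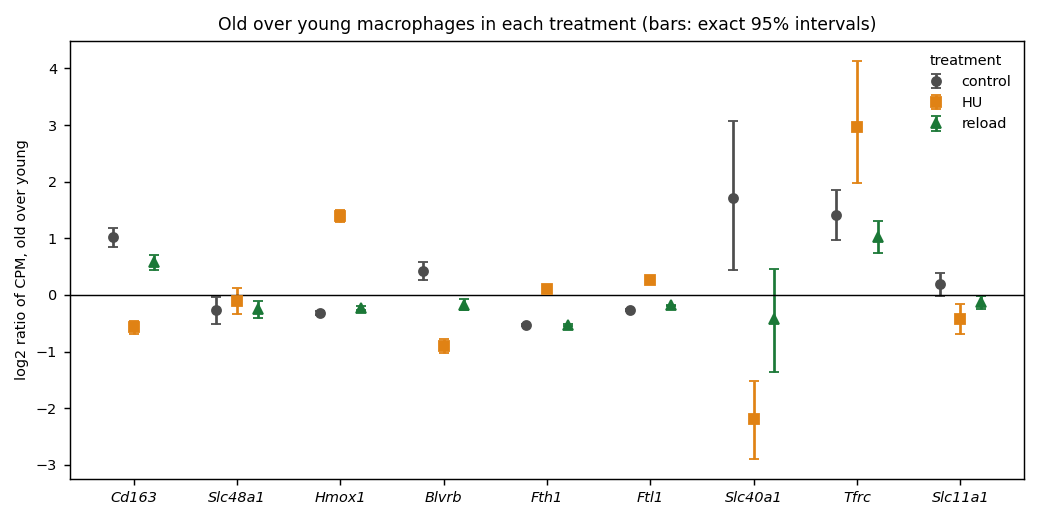
Log2 ratio of CPM, old over young macrophages, for the 9 genes in control, HU and reload, with exact 95% intervals for counting error. Tfrc lies above 0 in all 3 treatments (1.41, 2.97 and 1.02), and Cd163, Hmox1, Blvrb and Slc40a1 change side between HU and control.

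Beyond the 9 members, 87 genes of 10 hand-written lists of haem and iron biology, members included, were read in the same fits. Between the sets 12 were higher and 15 lower in the Lyve1-set, of 69 tested, where 10.6% of all tested genes were higher and 10.6% lower. In the uptake list 5 of 9 tested were higher and 3 lower. Its non-members that were higher were Cd36 (1.49), a scavenger receptor, Mertk (0.96), a receptor for dying cells, Msr1 (0.62) and Slc46a1 (1.51), a haem and folate carrier, and Axl (-1.47), another receptor for dying cells, was lower. In the breakdown list Blvrb was higher and Por (-0.48), the reductase that feeds electrons to haem oxygenase, was lower. In the export list both tested genes were higher, Slc40a1 and Cp (3.80), the ferroxidase ceruloplasmin, which had 142 UMIs in all macrophages. In the storage list Ncoa4, the receptor that delivers ferritin to the lysosome, was 0.94 higher, and the iron chaperones Pcbp1 (-0.41) and Pcbp2 (-0.42) were lower. Of 6 tested import genes Tfrc was higher and Slc39a14 (-0.51), a transporter of zinc and iron, was lower. In haem synthesis 2 of 8 were lower, Alas1 (-0.47), the first enzyme of the pathway, and Tspo (-0.35), and of 9 mitochondrial genes Iscu (-0.42), the scaffold for iron-sulfur clusters, was lower. Among 12 regulators Maf, a transcription factor of the MAF family, was 1.92 higher and Hif1a, which encodes the oxygen-regulated factor HIF-1α, was lower (-0.57). Of 9 tested NRF2 targets 3 were lower and none higher, Sqstm1 (-0.48), Slc7a11 (-1.20) and Gsr (-0.74), and Nfe2l2, which encodes NRF2 itself, was lower too (-0.64). The remaining calls were Hp (-1.17), haptoglobin, and Ireb2 (0.59), an iron regulatory protein, which fall outside the naming rule and were named after their values were seen. No gene of the haem export and binding list passed, where Pgrmc1 had 37.3 to 55.5 CPM and Hebp1 11.6 to 25.8 CPM over the macrophage libraries. Other genes with many UMIs in their lists were Lrp1, the receptor for haem bound to haemopexin, at 152 to 323 CPM, Slc11a2, a divalent metal importer, at 15.1 to 70.1 CPM, Glrx5 at 47.2 to 56.9 CPM and Prdx1 at 621 to 1428 CPM, and none passed between the sets. The median over all lists was 0.01 in this comparison, as over all tested genes (0.02).

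Between reload and HU macrophages 2 of 73 list genes were called higher and 4 lower, where 2.74% of all tested genes were higher and 2.99% lower. Msr1 (1.03) and Por (1.63) were higher in reload. Cd36 (-2.03), Maf (-1.30), Lcn2 and Cd163 were lower, with edgeR adjusted p between 0.034 and 0.049 over the 6 genes. Lcn2 had 0.109 CPM and 0 UMIs in old and young reload macrophages against 4.79 and 1.46 CPM in old and young HU, and no fold is given for it. It encodes lipocalin 2, which binds iron siderophores and is abundant in neutrophils, whose 10 markers summed to 200 and 270 CPM in old and young reload macrophages against 665 and 51.6 CPM in old and young HU. Against control, HU had 0 calls among the 73, and the 9 tested NRF2 targets had a median of -1.35 beside -0.02 over all genes. Sqstm1 stood at 962 and 529 CPM in old and young HU macrophages against 1587 and 2732 CPM in old and young control. Bach1, the haem-sensing repressor of Hmox1, had 197 and 72.5 CPM in old and young HU against 261 and 253 CPM in old and young control.

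The genes whose levels were most like each member were taken over the 40 class by library sums with at least 30 cells, by the Pearson correlation of log2(CPM + 5) among 5013 genes. Sums of 1 library share its depth, so these values are descriptions. Slc40a1 was most like Mmp9, Cxcr2 and Il1f9 (r = 0.93 each). Cd163 was most like Fcna (0.88), Mgl2 (0.86) and Mrc1 (0.84), and Blvrb like Apoe (0.88) and Lamp1 (0.81). Of these, Mmp9 and Cxcr2 are neutrophil gate markers, Mrc1 and Apoe macrophage gate markers, and Fcna a Lyve1-set marker. The gates therefore help to set the levels of such markers over the class sums. Hmox1 was nearest to Lyz2 (0.92), Ftl1 (0.90) and Cd14 (0.89), and Ftl1 to Atp6v0c (0.92), Tlr2 (0.91) and Fcgr3 (0.91). Fth1 was nearest to Pla2g7 (0.91), Tnfaip2 (0.91) and Atp6v0c (0.89), Slc11a1 to Cd300ld (0.95), C5ar1 (0.94) and Igsf6 (0.94), and Slc48a1 to Hsd17b12 (0.83), Ergic3 (0.82) and Vim (0.81). Tfrc had the weakest likeness, with Irs2 (0.63), Usp16 (0.63) and Kmt2a (0.62).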

How the data were processed

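The deposited files hold raw UMI counts per gene and barcode for 6 libraries, made by the authors with Cell Ranger 3.1.0 on mm10, and no normalized values were used. Seurat is named in the submitters' processing notes, and its output was not used here. Barcodes over 10% mitochondrial UMIs or under 200 genes were left out, and doublets called by scrublet in scanpy 1.11.5 (0.8% per 1000 barcodes, 340 marked) were removed. A cell took a class with at least 3 of its markers and a lead of 2 over the next class. A macrophage took a set with at least 2 of its markers and more than of the other set. Counts were summed per library and class and tested with edgeR 4.0.16 (R 4.3.3, quasi-likelihood, TMM, filterByExpr, treatment and age as terms, or library as a block between classes or sets), with DESeq2 1.42.0 as an alternative. A library entered a class with at least 30 cells. The edgeR fit was tested on simulated data, with changes set only in 200 genes with a mean over 20 CPM. It recovered 20% of 2-fold and 97% of 4-fold changes for reload against HU. The shares were 59% and 100% for age, and 100% and 100% between sets. In that order, 10 of 127, 22 of 181 and 14 of 214 calls were on unchanged genes. Genes with a lower mean, such as Slc40a1 in macrophages, were not covered. To compare shares of cells, cells with at least 2000 UMIs were thinned to 2000, which left 4054 of 4687 macrophages. The text names all 9 members, the 3 genes most like each (1 of which is not reported here), list genes that passed in a macrophage fit (at most 20 a fit, by p) and the 2 of each list with most UMIs. The members, lists and rules were chosen with earlier results of these data known. Intervals cover counting error and not variation between mice.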

Additional observations from a re-analysis of the deposited data

Results flagged for a closer look

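In macrophages the old over young log2 ratio of 6 members lay on opposite sides of 0 in different treatments, each beyond counting error. The same count was not made over all genes, so it does not set these members apart from other genes. The difference between treatments was not tested, since each ratio compares 1 library with 1 library. For Hmox1 the ratio was -0.32 in control, 1.40 in HU and -0.23 in reload. For Slc40a1 it was 1.71 in control, -2.19 in HU and -0.43 in reload, where the interval included 0, and with each cell weighted equally it was 0.36, -1.16 and 0.87. For Cd163 it was 1.02 in control, -0.57 in HU and 0.57 in reload, and for Blvrb 0.42 in control, -0.90 in HU and -0.18 in reload. The ferritin ratios were smaller, at -0.52, 0.10 and -0.53 for Fth1 and at -0.27, 0.26 and -0.18 for Ftl1 in control, HU and reload.

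Ferritin ratios lay on opposite sides of 0 in other classes too, with a different order in T cells. Fth1 in neutrophils had -0.86, 0.079 and -0.59 in control, HU and reload. Ftl1 had -0.68, 0.10 and -0.26 in neutrophils and -0.80, 0.31 and -0.29 in dendritic cells. In T cells Fth1 had -0.21, 0.54 and 0.018, where the reload interval included 0, and Ftl1 had 0.14, 0.69 and -0.26. These differences were not tested either. Fth1 in dendritic cells was lower in old in all 3 treatments (-1.15, -0.11 and -0.41).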

How the results depend on the processing

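No paired analysis was possible because each group has 1 library and the labels give no replicate numbers, and the age test already holds treatment as a block. Of 1677 values of member fold changes under other settings, 1557 kept direction and side of the threshold, 57 reversed, 40 passed only there and 23 no longer passed, and for changes without a stated reason the cause was not tested. Settings restricted to 1 macrophage set, and the one without shared barcodes, were added after seeing the data. With each cell weighted equally, 36 of 54 macrophage levels left their counting interval, at 0.62 to 2.0 times the summed level for Slc40a1 and 0.92 to 1.65 times for the other members.

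Counts of called genes moved as follows. For age, 0 genes became 1 with thinned cells, 10 with DESeq2, 29 with no filter on low counts, 5 without both reload libraries and 3 in the Lyve1-set, and lay between 0 and 47 with 1 library left out. For reload against HU, 575 became 1803 with no filter, 115 in the Lyve1-set and 20 in the Ccr2-set, and lay between 33 and 1670 with 1 library left out. For HU against control, 0 became 250 with DESeq2, 765 with no filter and 3 in the Lyve1-set, and lay between 0 and 1162 with 1 library left out. For reload against control, 1 became 2 at a 20% mitochondrial limit, 5 with the looser and 3 with the stricter gate, 8 with classes by cluster, 24 thinned, 159 with DESeq2, 10 with library totals, 388 with no filter, 41 in the Lyve1-set and 3 in the Ccr2-set, and lay between 0 and 165 with 1 library left out. Thinning, which leaves fewer cells and UMIs, gave 984 genes between sets and 1868, 2414 and 2748 against monocytes, dendritic cells and neutrophils.

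Reversed log2 values were, for age, Hmox1 -0.31, Slc40a1 0.44 and Blvrb 0.086 without both HU libraries, Ftl1 0.0043 thinned, 0.11 without both control libraries and 0.035 without both reload libraries, and in the Ccr2-set Hmox1 -0.069, Cd163 -0.061, Ftl1 0.048, Blvrb 0.17 and Slc11a1 0.074. For reload against HU they were Ftl1 0.053 with no filter and Blvrb 0.019 in the Ccr2-set, and for HU against control Fth1 0.069 in the Lyve1-set. For reload against control they were Slc40a1 0.089, Cd163 0.35, Blvrb 0.013 and Slc11a1 -0.21 in the Lyve1-set, and Tfrc 0.80 and Blvrb 0.23 in the Ccr2-set. Between sets Ftl1 had 0.012 at a 5% mitochondrial limit, 0.010 with the looser gate, 0.15 with classes by cluster, 0.045 thinned and 0.11 with library totals, and Slc11a1 had 0.049 with classes by cluster. Fth1 against monocytes had 0.13 with the looser gate and 0.082 thinned, and with classes by cluster Ftl1 against neutrophils had -0.0069 and Tfrc against B cells -0.082.

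With 1 library left out, age values lay between -0.32 and 0.66 for Hmox1, -1.33 and 0.41 for Slc40a1, -0.28 and 0.12 for Ftl1, and -0.46 and 0.083 for Blvrb. Those of reload against HU lay between -0.67 and 0.17 for Fth1, -0.38 and 0.32 for Ftl1, and -0.21 and 1.77 for Tfrc, and those of HU against control between -0.56 and 0.29 for Fth1 and -0.47 and 0.24 for Ftl1. Those of reload against control lay between -2.13 and 0.85 for Slc40a1, -0.36 and 0.079 for Ftl1, -0.81 and 0.20 for Tfrc, and -0.58 and 0.25 for Blvrb. Ftl1 lay between -0.11 and 0.011 between sets and between -0.080 and 0.34 against neutrophils, Fth1 between -0.10 and 0.051 against monocytes, and Tfrc between -0.13 and 1.03 against B cells.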

Other observations

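Haemoglobin transcripts in macrophages came mostly from 1 cell in young control and from 1 cell in old HU. Of 3028 haemoglobin UMIs in young control macrophages 2968 lay in 1 cell, and of 2544 in old HU macrophages 2460 lay in 1 cell. The other 4 libraries held 17 to 38 haemoglobin UMIs over all their macrophages, with at most 4 in a cell. In these libraries 1.78% to 3.51% of macrophages held any.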
